A study of Homo sapiens with 6 samples.

Results

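Cells make cholesterol and fatty acids from the same precursor, acetyl-CoA, along separate chains of enzymes. The sterol arm runs through mevalonate, isoprenoids, squalene and lanosterol to cholesterol, and the fatty acid arm builds, lengthens and desaturates acyl chains. Both arms are known targets of the sterol regulatory element-binding proteins (SREBPs), membrane-held transcription factors that the escort protein SCAP carries from the endoplasmic reticulum when sterols are scarce and that INSIG proteins hold back when sterols are plentiful. The genes described here are 29 of the 48644 gene rows of the table, chosen by name with earlier results of these data known. Their counts beside those of all tested genes are therefore description and not a test. The sterol arm has 21 of them, 16 enzymes and 5 genes of sterol sensing and transport, and the fatty acid arm has 8.

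Poly(A)+ RNA was sequenced from KYSE70 cells, a long-established line from a human squamous carcinoma of the esophagus, grown in RPMI1640 with fetal bovine serum. The cells carried a doxycycline-inducible short hairpin RNA against SOX2 (pLKO-Tet-On-shSOX2, the shSOX2 line) or against TP63 (pLKO-Tet-On-shTP63, the shTP63 line), transcription factors of squamous epithelium. For each line there was 1 untreated day 0 library and there were 2 day 4 libraries, taken after doxycycline at 50 ng/ml. The day 4 libraries carry the numbers 2 and 1 and each day 0 library the number 2. The labels do not say whether a number marks a culture or a hairpin, so the p-values reflect the spread among these libraries and nothing wider. The libraries are called replicates 2 and 1 below by these numbers alone. Each is set against the day 0 library of its line, and number 1 has no day 0 library of its own number. No line with a control hairpin was analysed here, so the effect of the hairpin's target and that of doxycycline or of 4 days in culture cannot be told apart. The question put by the design is what lowering either factor does to gene expression. Levels below are the deposited values, read as log2(RPKM + 1), where RPKM is reads scaled to transcript length and to the library's mapped reads. The log base and the pseudocount of 1 were read from the values and no source states them. Read depth is unknown, and a fold is a ratio of RPKM + 1, which understates the change of genes at low levels.

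The targeted genes were checked first. SOX2 stood at 6.25 at day 0 of its line and at 5.65 and 4.67 at day 4, which is a fitted change of -1.10 ± 0.45 log2 units (limma estimate ± SE, adjusted p = 0.469). TP63 stood at 3.99 at day 0 of its line and at 2.26 and 2.11 at day 4, which is -1.81 ± 0.32 (limma adjusted p = 0.131). Both targets were below day 0 in both induced libraries of the line concerned, and the SOX2 levels of those libraries were far apart. In the shTP63 line SOX2 stood at 5.69 at day 0 and at 5.55 and 5.41 at day 4. The induced shSOX2 library with SOX2 at 5.65 was thus above both induced shTP63 libraries. Between the induced lines SOX2 differed by 0.32 ± 0.37 (limma adjusted p = 0.621), so lower SOX2 in the induced shSOX2 line was not shown. All 10 squamous epithelial markers had a mean RPKM of at least 1. Of the markers of other cells, CD68 of 5 leukocyte genes and COL1A1 and THY1 of 5 fibroblast genes reached that level, and no endothelial (2 genes) or hepatocyte and adipocyte (6 genes) marker did. PTPRC, CD3E, COL1A2 and DCN, which define leukocytes and fibroblasts, were at 0 to 0.04 on the log2 scale in every library. The summed RPKM of the squamous list was 1790 (shSOX2 line) and 2880 (shTP63 line) at day 0, and 641 and 1060, then 2520 and 1040, at day 4. Most of this sum was KRT5 and KRT6A in every library. KRT6A and PKP1 were below day 0 of their line in all induced libraries, PERP, JUP and KRT15 were above it, and the rest of the list was mixed. The sum of the fibroblast list, mostly COL1A1 and THY1, was 2.59 and 3.27 at day 0 and 6.20 to 7.81 at day 4. The sum of the leukocyte list, mostly CD68, was 2.78 and 6.34 at day 0 and 0.683 to 1.80 at day 4. The part of these shifts in the results was not tested. The shTP63 day 0 library stood apart, with 16167 genes above 0 against 21530 to 23509 in the other 5. Over the members, its level was lower than that of the shSOX2 day 0 library by a median log2 difference of -0.27, against 0.01 over all tested genes.

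Of the 29 genes, 28 had a mean RPKM of at least 1 and were tested. HSD17B7, a 3-ketosteroid reductase, had a mean RPKM of 0.68 and was not; its levels were 0.52, 0.58 and 0.56 in the shSOX2 line (day 0, then day 4 replicates 2 and 1) and 0.62, 0.89 and 1.18 in the shTP63 line. All levels below are in this order. The members were mostly higher after induction in either line, but no member passed the test after correction. Above its own day 0 library in both day 4 libraries were 17 of 28 members in the shSOX2 line, where 33.3% of the 10536 tested genes were, and 21 of 28 in the shTP63 line, against 37.9% of tested genes. Below day 0 in both libraries were 6 members in the shSOX2 line (40.2% of tested genes) and 2 in the shTP63 line (38.5%). With the shSOX2 day 0 library as the control for the shTP63 line, 17 of 28 members were above it in both libraries, against 38.4% of tested genes. Above their own day 0 in all 4 induced libraries were 14 members (19.4% of tested genes), and 12 of 28 were above both day 0 libraries in all 4 (11.5%). The plot of levels by library shows each gene.

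**Figure D1:**
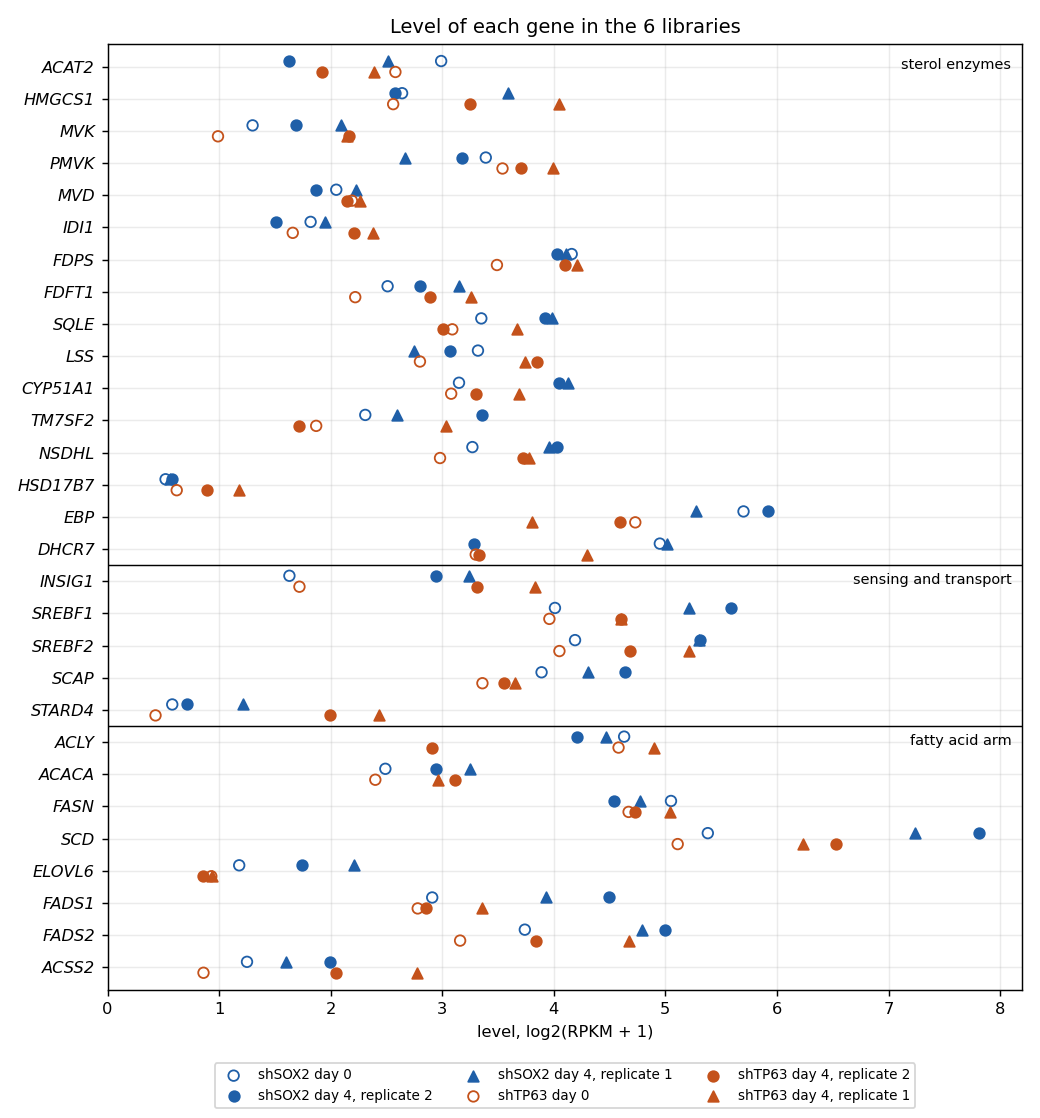
Level of each of the 29 genes in the 6 libraries, as log2(RPKM + 1) on the x axis, with genes in rows; open circles are day 0, filled circles day 4 replicate 2 and triangles day 4 replicate 1, blue for the shSOX2 line and orange for the shTP63 line. SCD reaches the highest level of the set, 7.81, and INSIG1 has all 4 induced libraries to the right of both day 0 libraries.

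By limma with Benjamini-Hochberg adjustment over all tested genes, 0 members passed an adjusted p of 0.05 in any comparison. With 1 day 0 library per line, a p above the threshold does not show that a gene was unchanged. Over all tested genes, the share that passed was 0% for induction of the SOX2 hairpin, 0.019% for the TP63 hairpin, 0.0569% for the mean response of both lines and 0% for the difference between the responses. At an unadjusted p under 0.05, 8 of 28 members were higher in the shSOX2 line (6.12% of tested genes), 10 in the shTP63 line (7.33%) and 13 in the mean response (10.4%). No member was lower at that level in any of the 3, where the shares of tested genes were 4.26%, 7.24% and 10.1%. The smallest adjusted p of a member was 0.294 with the SOX2 hairpin (SCD), 0.131 with the TP63 hairpin (STARD4 and INSIG1) and 0.0586 (INSIG1 and SCD) in the mean response. At least 2-fold higher in both libraries of the shSOX2 line were 6 members, INSIG1, SREBF1, SREBF2, SCD, FADS1 and FADS2, against 2.48% of tested genes. In the shTP63 line there were 5, MVK, INSIG1, STARD4, SCD and ACSS2, against 3.05%. INSIG1 and SCD were the members on both lists.

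The 5 genes of sterol sensing and transport were each above day 0 in all 4 induced libraries, where 19.4% of tested genes were. INSIG1, which retains the SCAP-SREBP complex in the endoplasmic reticulum and is itself an SREBP target, had levels of 1.63, 2.94 and 3.24 in the shSOX2 line and 1.72, 3.31 and 3.83 in the shTP63 line. The day 0 libraries lay close together and no induced library overlapped them. With the SOX2 hairpin its log2 change was 1.46 ± 0.36 (limma adjusted p = 0.349) and with the TP63 hairpin 1.85 ± 0.36 (limma adjusted p = 0.131). The mean response was 1.66 ± 0.26, a 3.15-fold ratio (limma adjusted p = 0.0586). At a pseudocount of 0.1 it passed the threshold (limma adjusted p = 0.0421), where 90 genes passed over the table, against 6 at the pseudocount of 1. Without shTP63 day 4 replicate 2 or replicate 1, which leaves a single library in that group, the mean response was 1.79 and 1.53. Over 11 alternative settings the limma adjusted p was at most 0.158. With both day 0 libraries as the control, INSIG1 also passed in the shTP63 line (1.89 ± 0.28, limma adjusted p = 0.018). Many more genes of the table passed with that control than with the line's own day 0 library.

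SREBF1 encodes SREBP-1, the form tied mainly to fatty acid synthesis. Its levels were 4.01, 5.59 and 5.21 in the shSOX2 line and 3.96, 4.60 and 4.60 in the shTP63 line. The shSOX2 induced libraries were the highest and all 4 were clear of day 0. The change was 1.38 ± 0.35 against 0.64 ± 0.35, and the difference between lines was -0.74 ± 0.50 (limma adjusted p = 0.995). SREBF2, which encodes SREBP-2, the form tied mainly to sterol synthesis, had levels of 4.19, 5.31 and 5.30 in the shSOX2 line and 4.05, 4.68 and 5.21 in the shTP63 line. Its mean response was 1.01 ± 0.26 (limma adjusted p = 0.113). The responses of SREBF2 in the lines, 1.11 ± 0.37 and 0.90 ± 0.37, were within an SE of each other. An exon of SREBF1 overlaps RAI1 on the other strand by 442 bases in the GENCODE annotation, and since no source says that counting used strand, reads there cannot be told apart.

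SCAP, the SREBP escort, had the smallest mean response of the sensing group, 0.41 ± 0.24. Its levels were 3.89, 4.64 and 4.31 in the shSOX2 line and 3.36, 3.55 and 3.65 in the shTP63 line, so the induced shTP63 libraries lay below the shSOX2 day 0 library and their change against it was -0.30 ± 0.34. STARD4, a cytosolic carrier of cholesterol, differed most between the lines within the group. It stood at 0.58, 0.71 and 1.21 in the shSOX2 line and at 0.43, 1.99 and 2.43 in the shTP63 line. Its change was 0.38 ± 0.34 and 1.78 ± 0.34, the second a 3.43-fold ratio (limma adjusted p = 0.131). Without shTP63 day 4 replicate 2, which leaves a single library in that group, the change in the shTP63 line was 2.00. With both day 0 libraries as the control it was 1.71 ± 0.27 (limma adjusted p = 0.0224), where many more genes of the table passed than in the main fit. With the shSOX2 day 0 library alone it was 1.63 ± 0.34 (limma adjusted p = 0.0984). The difference between the responses was 1.39 ± 0.49 (limma adjusted p = 0.995), so STARD4 was not shown to respond differently. STARD4 was near the low end of the measured range at day 0, with RPKM of 0.493 and 0.351, and in the shTP63 day 0 library the smallest value above 0 was 0.143 on the log2 scale.

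The promoters of SREBF2, INSIG1 and STARD4 are shown because SREBF2 alone of the matched members holds the sterol regulatory element searched for, and because INSIG1 and STARD4 had the smallest adjusted p-values of the sensing group. Each is the stretch of 250 bases before the gene's start in RefSeq (GRCh38.p14, while the expression values use hg19), written 5′ to 3′ on the gene's strand. Capitals mark matches to TCACNCCAC (a sterol regulatory element), CCAAT (the NF-Y box), GGGCGG (the core of the GC box) and CACGTG (an E-box) on either strand.
SREBF2, chr22:41832855-41833104, plus strand: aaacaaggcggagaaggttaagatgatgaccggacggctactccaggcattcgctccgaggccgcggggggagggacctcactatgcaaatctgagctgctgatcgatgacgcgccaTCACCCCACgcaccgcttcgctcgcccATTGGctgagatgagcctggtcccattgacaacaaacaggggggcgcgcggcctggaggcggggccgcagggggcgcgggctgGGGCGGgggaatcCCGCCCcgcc
INSIG1, chr7:155297628-155297877, plus strand: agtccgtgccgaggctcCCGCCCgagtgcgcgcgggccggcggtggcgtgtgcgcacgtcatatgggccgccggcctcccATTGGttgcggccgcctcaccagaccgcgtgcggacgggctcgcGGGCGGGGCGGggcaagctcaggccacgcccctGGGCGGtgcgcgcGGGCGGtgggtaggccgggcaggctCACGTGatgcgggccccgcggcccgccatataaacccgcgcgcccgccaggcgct
STARD4, chr5:111512536-111512785, minus strand: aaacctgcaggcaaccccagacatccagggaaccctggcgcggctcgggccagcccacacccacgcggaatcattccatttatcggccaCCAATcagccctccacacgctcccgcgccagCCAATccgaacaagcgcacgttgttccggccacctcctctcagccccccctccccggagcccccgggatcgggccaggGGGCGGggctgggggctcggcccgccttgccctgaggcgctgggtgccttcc
In SREBF2 the TCACNCCAC match begins 133 bases before the start and a CCAAT match, on the opposite strand, begins 106 bases before it. INSIG1 holds 5 GGGCGG matches, a pair of which overlap, and an E-box 55 bases before the start. STARD4 holds CCAAT 161 and 130 bases before the start.

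Promoters were matched for 25 of the 29 members. CCAAT was found in 18 of 25, against 37.0% of the 27305 RefSeq genes and 42.8% of the 6851 tested genes matched. GGGCGG was found in 24 of 25, against 46.2% and 77.8%. The E-box was found in 2, INSIG1 and SCAP, against 7.73% and 11.8%, and TCACNCCAC in 1, SREBF2, against 1.09% and 1.34%. Matches to GGGCGG can overlap each other, and CACGTG reads the same on both strands. The median GC content was 67.2% in the members and 65.2% in the tested genes. These are letters in a window, not sites shown to be bound.

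Among the 15 tested sterol enzymes, 4 were above day 0 in all 4 induced libraries, MVK, FDFT1, CYP51A1 and NSDHL, where 19.4% of tested genes were. The median log2 change of the enzymes was 0.01 in the shSOX2 line and 0.51 in the shTP63 line. The same median over all tested genes was -0.05 and 0.00. MVK, mevalonate kinase, stood at 1.30, 1.69 and 2.09 in the shSOX2 line and at 0.99, 2.16 and 2.15 in the shTP63 line. The change of MVK was 0.58 ± 0.31 and 1.16 ± 0.31 (limma adjusted p = 0.544 and 0.178). MVK shares 225 bases of exon with MMAB on the other strand. FDFT1, squalene synthase, the first enzyme committed to sterols, had changes of 0.47 ± 0.35 and 0.86 ± 0.35.

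CYP51A1, lanosterol demethylase, had levels of 3.15, 4.05 and 4.13 in the shSOX2 line and 3.08, 3.30 and 3.69 in the shTP63 line. Its changes were 0.94 ± 0.35 and 0.41 ± 0.35 (limma adjusted p = 0.439 and 0.624). NSDHL, which takes part in removing methyl groups from the sterol ring, was among the most even members. Its levels were 3.27, 4.03 and 3.96 in the shSOX2 line and 2.98, 3.72 and 3.78 in the shTP63 line, with changes of 0.72 ± 0.32 and 0.77 ± 0.32. The day 4 values of NSDHL were above both day 0 libraries throughout.

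SQLE, squalene epoxidase, was above day 0 in both shSOX2 libraries (differences of 0.57 and 0.63) and on either side of it in the shTP63 line (-0.08 and 0.58). HMGCS1, which makes HMG-CoA, had differences of -0.06 and 0.95 in the shSOX2 line and 0.68 and 1.49 in the shTP63 line. In both lines replicate 1 of HMGCS1 was the higher library. TM7SF2, a sterol reductase, had differences of 1.05 and 0.29, then -0.15 and 1.16, so its induced libraries straddled day 0 in the shTP63 line. IDI1, isopentenyl diphosphate isomerase, had differences of -0.31 and 0.13 in the shSOX2 line and 0.55 and 0.72 in the shTP63 line. MVD, which makes isopentenyl diphosphate, lay within 0.19 of day 0 on the log2 scale in all 4 induced libraries.

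LSS, PMVK and FDPS lay below day 0 in both shSOX2 libraries and above it in both shTP63 libraries. LSS, lanosterol synthase, had levels of 3.32, 3.07 and 2.75 in the shSOX2 line and 2.80, 3.85 and 3.74 in the shTP63 line. Its changes were -0.41 ± 0.33 and 1.00 ± 0.33 (limma adjusted p = 0.685 and 0.248). With the day 0 controls exchanged between the lines, the changes of LSS were 0.11 ± 0.33 and 0.48 ± 0.33 and those of FDPS 0.58 ± 0.33 and -0.01 ± 0.33, so the opposite directions of these genes did not hold with that control. PMVK, phosphomevalonate kinase, had changes of -0.47 ± 0.37 and 0.31 ± 0.37. FDPS, farnesyl diphosphate synthase, had changes of -0.09 ± 0.33 and 0.67 ± 0.33, and its shTP63 day 0 level of 3.49 was the one value apart from 5 between 4.03 and 4.21. FDPS overlaps RUSC1-AS1 on the other strand by 258 bases, and LSS overlaps AP001468.1 by 448 and AP001469.1 by 122.

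ACAT2, the acetyl-CoA acetyltransferase at the head of the pathway, was the 1 member below day 0 in all 4 induced libraries, as 23% of tested genes were. Its levels were 2.99, 1.63 and 2.51 in the shSOX2 line and 2.58, 1.92 and 2.39 in the shTP63 line, and its mean response was -0.67 ± 0.31 (limma adjusted p = 0.269). ACAT2 shares exon bases with TCP1 and SOD2 on the other strand, and TCP1 had log2 differences from day 0 of -0.94 and -0.23, then -1.18 and -1.20; the part of these reads in the ACAT2 values was not tested. EBP and DHCR7 act late in the pathway, as a sterol isomerase and the reductase that yields cholesterol. EBP stood at 5.70, 5.92 and 5.27 in the shSOX2 line and at 4.73, 4.59 and 3.80 in the shTP63 line. DHCR7 stood at 4.95, 3.28 and 5.01, then at 3.30, 3.33 and 4.30. For both genes the day 0 libraries differed by about as much as any induced library did from its own, with log2 differences of -0.97 for EBP and -1.65 for DHCR7. The shSOX2 change of DHCR7 was -0.80 ± 0.70 against its own day 0 and 0.84 ± 0.70 against the other, and its shTP63 change was 0.51 ± 0.70 and -1.13 ± 0.70. EBP in the shSOX2 line likewise turned from -0.11 ± 0.46 to 0.86 ± 0.46.

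**Figure D2:**
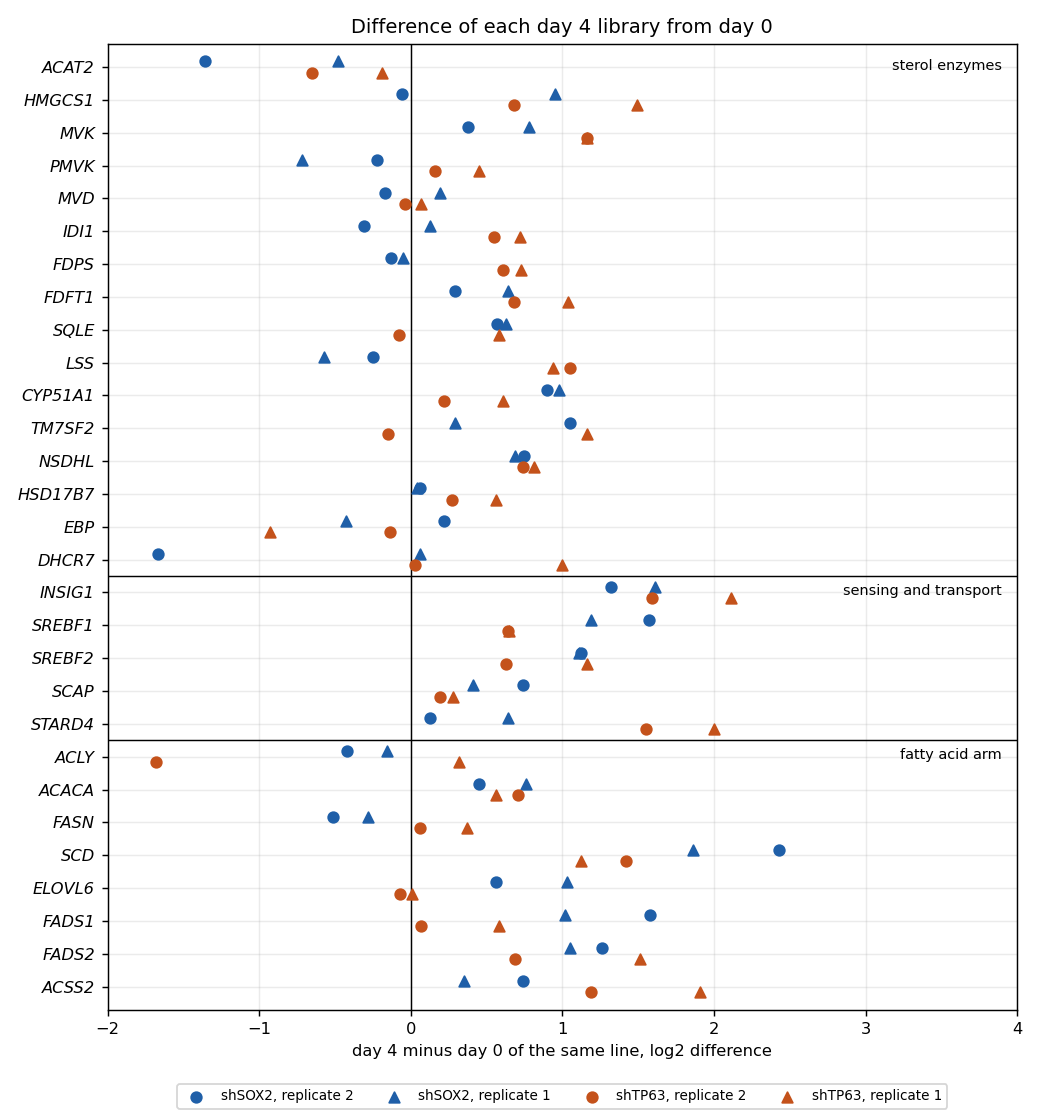
Difference of each day 4 library from day 0 of its own line, in log2 units on the x axis, for the 29 genes in rows; circles are replicate 2 and triangles replicate 1, blue for the shSOX2 line and orange for the shTP63 line. All 20 points of the sensing and transport genes lie to the right of 0, while those of the sterol enzymes lie on both sides.

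In the fatty acid arm, 5 of 8 genes were above day 0 in all 4 induced libraries (19.4% of tested genes): ACACA, SCD, FADS1, FADS2 and ACSS2. SCD, the stearoyl-CoA desaturase that makes monounsaturated fatty acids, was the most abundant member and had levels of 5.38, 7.81 and 7.24 in the shSOX2 line and 5.11, 6.53 and 6.23 in the shTP63 line. These are RPKM of 40.5, 223 and 150, then 33.5, 91.5 and 73.9. Every induced library was above both day 0 libraries, and the shSOX2 libraries were the highest. The change of SCD was 2.15 ± 0.38 in the shSOX2 line (limma adjusted p = 0.294) and 1.27 ± 0.38 in the shTP63 line (0.210). The mean response was 1.71 ± 0.27, a 3.27-fold ratio (limma adjusted p = 0.0586). At a pseudocount of 0.1 it passed the threshold (limma adjusted p = 0.0421), where 90 genes passed over the table, against 6 at the pseudocount of 1. Without shTP63 day 4 replicate 2 or replicate 1, which leaves a single library in that group, the mean response was 1.63 and 1.79. Over 11 alternative settings the limma adjusted p was at most 0.158. The difference between lines was -0.88 ± 0.54 (limma adjusted p = 0.995). The processed pseudogene SCDP1 had a mean RPKM of 0.0594. The SCD promoter is shown because SCD had the largest mean response of the set, with capitals and source as above.
SCD, chr10:100346983-100347232, plus strand: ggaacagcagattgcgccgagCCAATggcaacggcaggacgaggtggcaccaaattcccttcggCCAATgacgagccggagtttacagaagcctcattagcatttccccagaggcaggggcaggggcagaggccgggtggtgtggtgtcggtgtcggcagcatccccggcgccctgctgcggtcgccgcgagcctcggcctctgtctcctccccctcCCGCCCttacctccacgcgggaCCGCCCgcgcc
It holds CCAAT 229 and 186 bases before the start and a pair of GGGCGG matches on the opposite strand.

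FADS1 and FADS2 encode the delta-5 and delta-6 desaturases of polyunsaturated fatty acid synthesis and lie side by side. FADS2 stood at 3.74, 5.00 and 4.79 in the shSOX2 line and at 3.16, 3.84 and 4.67 in the shTP63 line, with changes of 1.15 ± 0.42 and 1.10 ± 0.42 (limma adjusted p = 0.439 and 0.295). FADS1 stood at 2.91, 4.49 and 3.93, then at 2.78, 2.85 and 3.36, with changes of 1.30 ± 0.40 and 0.33 ± 0.40. The shTP63 replicate 2 library was hardly above day 0 for FADS1. The difference between lines for FADS1 was -0.97 ± 0.56 (limma adjusted p = 0.995). The genes share 165 bases of exon on opposite strands, so reads there cannot be told apart.

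ACSS2, which makes acetyl-CoA from acetate, had levels of 1.25, 1.99 and 1.60 in the shSOX2 line and 0.86, 2.05 and 2.77 in the shTP63 line. Its changes were 0.55 ± 0.38 and 1.55 ± 0.38 (limma adjusted p = 0.628 and 0.164). ACACA, acetyl-CoA carboxylase, was among the most even, with levels of 2.49, 2.94 and 3.25, then 2.40, 3.11 and 2.96. Its changes were 0.61 ± 0.33 and 0.63 ± 0.33. ELOVL6, which lengthens palmitate, stood at 1.18, 1.74 and 2.21 in the shSOX2 line and at 0.93, 0.86 and 0.94 in the shTP63 line. The change of ELOVL6 was 0.79 ± 0.31 against -0.03 ± 0.31, a difference of -0.83 ± 0.44 (limma adjusted p = 0.995).

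FASN and ACLY, which carry out the bulk of palmitate synthesis and supply cytosolic acetyl-CoA from citrate, were not higher in every induced library. FASN stood at 5.05, 4.54 and 4.77 in the shSOX2 line and at 4.67, 4.73 and 5.04 in the shTP63 line, with changes of -0.39 ± 0.35 and 0.21 ± 0.35. ACLY stood at 4.63, 4.21 and 4.47, then at 4.58, 2.91 and 4.90. The shTP63 replicate 2 library was far below the other 5 for ACLY, and its change of -0.68 ± 0.71 in that line had the widest SE of the set. Without that library it was 0.32.

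The sterol and fatty acid arms were compared by description. The median log2 change of the 20 tested sterol genes was 0.46 with the SOX2 hairpin, 0.64 with the TP63 hairpin and 0.50 for the mean response. That of the 8 fatty acid genes was 0.70, 0.48 and 0.72, and that of all tested genes -0.05, 0.00 and -0.02. Both arms stood above the median of all tested genes in each line. The median level of all tested genes was 2.36 or 2.37 in every library. Quantile normalization, which gives the columns the same distribution, would leave it so, and a change near 0 is then no measured baseline. Library by library, the sterol median was 0.26 and 0.52 in the shSOX2 replicates 2 and 1 and 0.58 and 0.77 in those of the shTP63 line. The fatty acid median was 0.65 and 0.89, then 0.38 and 0.57. By median, the fatty acid arm was thus the higher in both shSOX2 libraries and the lower in both shTP63 libraries. The order in the shTP63 line depended on counting the sensing and transport genes in the sterol arm. For the sterol enzymes alone the median was -0.06 and 0.19, then 0.22 and 0.73. Against these, the fatty acid median was the higher in shTP63 replicate 2 and the lower only in shTP63 replicate 1. The fatty acid mean minus the sterol mean was 0.52 and 0.30 in the first line and -0.17 and 0.01 in the second. Without SCD the fatty acid mean was 0.52 and 0.54, then 0.14 and 0.75. The sterol mean was 0.24 and 0.40, then 0.47 and 0.79. Within the sterol arm, the 5 sensing and transport genes had medians of 1.11 and 0.90 in the lines. The median gap between the replicates of a member was 0.37 in the shSOX2 line and 0.38 in the shTP63 line, against 0.30 and 0.28 over all tested genes. The order of the arms was not tested. With DHCR7, ACLY and ACAT2 left out, a choice made after seeing the data, the fatty acid median of the shTP63 line was 0.63 and the sterol median 0.66.

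**Figure D3:**
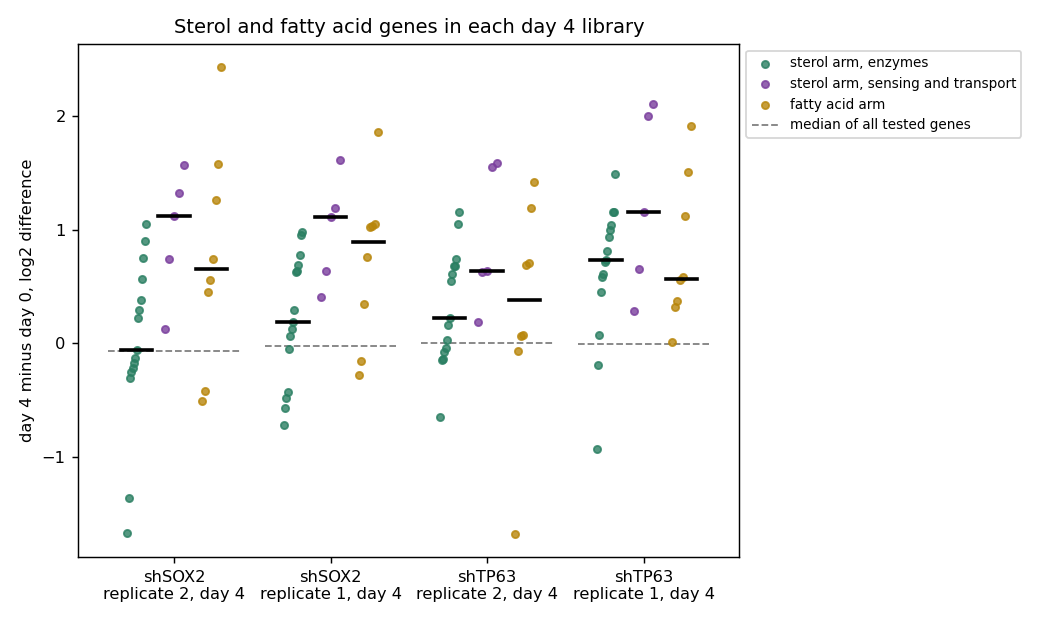
Log2 difference from day 0 of the same line on the y axis for each of the 28 tested genes, in the 4 induced libraries on the x axis; points are genes coloured by group, black bars are group medians and the dashed line is the median of all tested genes. The sensing and transport genes have the highest bar in every library.

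The lines were also set against each other. Between the responses, 2 of 28 members differed at an unadjusted p under 0.05, LSS and STARD4, against 4.55% of tested genes. Between the induced libraries directly, 9 members did, against 23% of tested genes, and 0.759% of tested genes but no member passed after adjustment. The smallest adjusted p of a member there was that of STARD4 (1.25 ± 0.28, limma adjusted p = 0.0902), followed by ELOVL6 (-1.08 ± 0.25, 0.0932). Both induced shTP63 libraries were above both induced shSOX2 libraries for 7 members (30.5% of tested genes) and below them for 11 (26.6%). Of the 8 fatty acid genes, SCD, ELOVL6, FADS1 and FADS2 were in the second group and ACSS2 in the first. Across the 28 members, the changes in the lines, which share no library, had a Pearson correlation of 0.48, against 0.50 across all tested genes. This is across genes, which are not independent replicates.

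**Figure D4:**
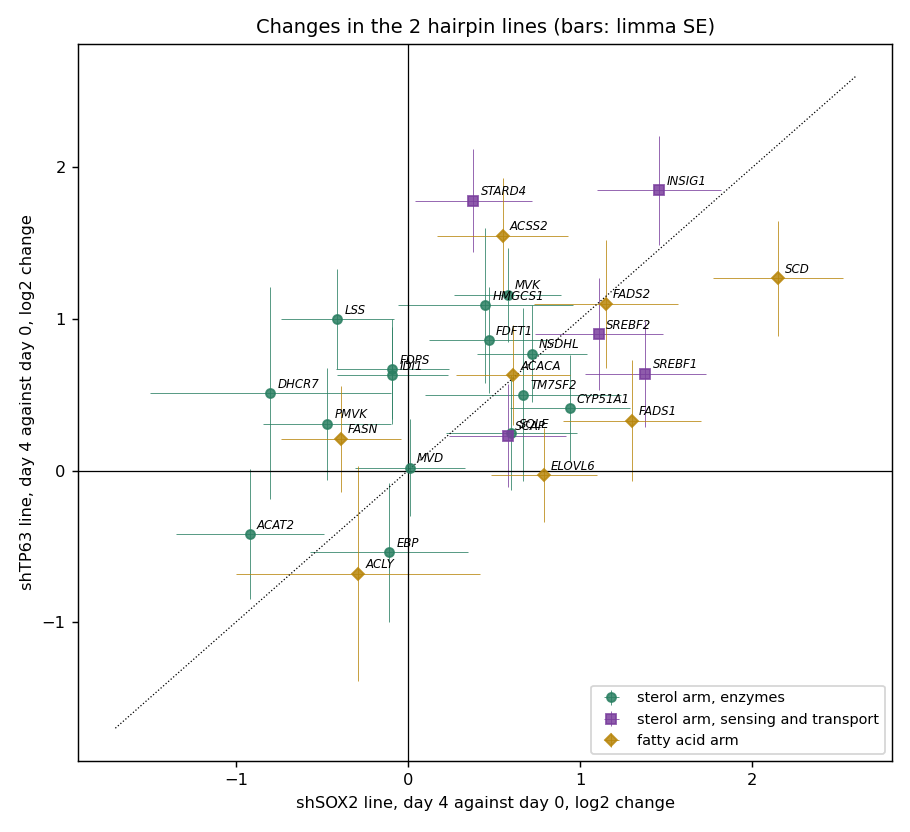
Log2 change at day 4 in the shSOX2 line (x axis) against that in the shTP63 line (y axis) for the 28 tested genes, with bars of 1 limma SE and a dotted line of equal change; green circles are sterol enzymes, purple squares sensing and transport genes and gold diamonds fatty acid genes. INSIG1 and SCD lie farthest up and right, STARD4 lies above the line, and LSS lies in the upper left.

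Other genes of lipid metabolism, from lists of their own, were read the same way, and none passed an adjusted p of 0.05 in the fit used throughout. Without shTP63 day 4 replicate 2, which leaves a single library in that group, the mean response was 1.34 for MSMO1 and 1.45 for DGAT2. Without shTP63 day 4 replicate 1, the change of ACSL1 between the induced lines was 1.64. ACSL1 passed in the shTP63 line with both day 0 libraries as control (limma adjusted p = 0.0409), where many more genes of the table passed. Of 10 other sterol and isoprenoid enzymes tested, 4 were above day 0 in all 4 induced libraries (19.4% of tested genes) and 1, FNTB, a farnesyltransferase subunit, was below, and the median mean response was 0.00. MSMO1, a sterol methyl oxidase, had the largest, with levels of 1.67, 2.41 and 2.90 in the shSOX2 line and 1.22, 2.26 and 2.91 in the shTP63 line (1.17 ± 0.28, limma adjusted p = 0.0986). C14orf1, a scaffold of the demethylation complex, had a mean response of 0.75 ± 0.24. Both act in the later, sterol-committed steps. DHDDS, which makes dolichol precursors on a side branch, had changes of -0.77 ± 0.31 and 0.22 ± 0.31.

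Of 18 genes of cholesterol trafficking, efflux and SREBP processing, 8 were above day 0 in all 4 libraries (19.4% of tested genes) and 1, NPC1, was below (23%). MBTPS1, the protease that first cuts SREBPs, had a mean response of 0.87 ± 0.26 and MYLIP, a sterol-induced ubiquitin ligase for lipoprotein receptors, one of 0.77 ± 0.23. NPC2, which moves cholesterol out of lysosomes, and PGRMC1 had changes of 1.38 ± 0.38 and 1.21 ± 0.36 in the shSOX2 line and 0.46 ± 0.38 and 0.27 ± 0.36 in the shTP63 line. Their difference between lines had an adjusted p of 0.995 by limma.

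Of 19 other genes of elongation, desaturation and acyl activation, 6 were above day 0 in all 4 libraries (19.4% of tested genes) and 1, MLX, the partner of ChREBP, was below (mean response -0.69 ± 0.22). SCD5, a second stearoyl-CoA desaturase, had a mean response of 0.84 ± 0.23, MLXIPL, the glucose-responsive factor ChREBP, one of 0.77 ± 0.24, and ACSL3, an acyl-CoA synthetase, one of 0.71 ± 0.24. ACSL1, of the same family, had changes of 0.39 ± 0.41 and 1.44 ± 0.41. Of 12 genes of triglyceride synthesis and storage, 5 were above day 0 in all 4 libraries (19.4% of tested genes) and 1, PLIN3, a lipid droplet coat protein, was below. DGAT2, which forms triglyceride, had levels of 1.26, 2.81 and 2.29 in the shSOX2 line and 1.01, 1.98 and 2.61 in the shTP63 line (mean response 1.29 ± 0.27, limma adjusted p = 0.087). LPIN1, a phosphatidate phosphatase, had a mean response of 0.90 ± 0.25. DGAT1 and AGPAT3, also of glycerolipid synthesis, had changes of 1.00 ± 0.36 and 1.09 ± 0.36 in the shSOX2 line against 0.23 ± 0.36 and 0.06 ± 0.36 in the shTP63 line.

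Of 17 genes of fatty acid oxidation, which breaks down what the fatty acid arm makes, 15 were above day 0 in both shTP63 libraries (37.9% of tested genes) and 8 in both shSOX2 libraries (33.3%). The 2 others, CPT1A, which brings fatty acids into mitochondria, and ACADM, a dehydrogenase of medium chains, were below day 0 in both shTP63 libraries. Both are named after their values were seen, as were FNTB, NPC1, MLX and PLIN3. HADHA and HADHB, the subunits of the mitochondrial trifunctional protein, had changes of 1.45 ± 0.38 and 1.25 ± 0.33 in the shTP63 line and -0.02 ± 0.38 and 0.54 ± 0.33 in the shSOX2 line. The difference between lines did not pass for either (limma adjusted p = 0.995). With the day 0 controls exchanged, the shSOX2 line had the larger changes, 0.88 and 1.13, against 0.55 and 0.66 in the shTP63 line. PPARD, a fatty acid-sensing nuclear receptor, had changes of 1.05 ± 0.40 in the shTP63 line and 0.71 ± 0.40 in the shSOX2 line. With the shSOX2 day 0 library as the control, 15 of 17 were above it in both shTP63 libraries (38.4% of tested genes).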

How the data were processed

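RNA sequencing of 6 KYSE70 libraries was used as 1 deposited table of 48644 gene rows. Its values are read as log2(RPKM + 1); the authors' file is named for RPKM, and the log2 scale was read from the values, which run from 0 to 13.36 with the same maximum in every deposited column, as quantile normalization would leave them. Per the submitters' processing notes the build is hg19. The aligner, counter and gene models, not given in the sources used here, are unknown. Depth per library is unknown, and the number of libraries limits the precision. The RNA protocol in the labels describes no strand marking.

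Groups came from the labels. A model of 4 group means with a mean-variance trend was fitted by limma 3.58.1 (R 4.3.3) over all 6 libraries (2 residual and 5.5 prior degrees of freedom), on the 10536 genes with a mean RPKM of at least 1. Tests are two-sided, with Benjamini-Hochberg adjustment over all tested genes and a threshold of 0.05. Each day 0 group is 1 library, taken to vary like the day 4 pairs. Comparisons were each induction, their mean, their difference and the induced lines directly. The fit was tested on simulated data, where it recovered the mean size of the changes. It called changed genes there only at the largest change simulated, which was larger than that of any member. Alternatives covered the pseudocount, filter, scaling, trend, spread, block, control library and each day 4 library left out.

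The members and lists were chosen with earlier results of these data known. Every member is named; from the other lists, genes passing the test, then up to 4 by p among those with an unadjusted p under 0.05 and the same direction in both libraries of a line; some genes that this picks are not reported here. Members, arms and lists have counts and medians beside those of all tested genes, with no test of their own. Exon overlaps come from GENCODE v29 and promoters from RefSeq, both on GRCh38. Beyond those given above, HMGCS1, IDI1, FDFT1, CYP51A1, SREBF2, STARD4 and ACLY also overlap exons on the other strand.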

Additional observations from a re-analysis of the deposited data

Results flagged for a closer look

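A few genes moved in opposite directions in the lines, with both induced libraries of the shSOX2 line below day 0 and both of the shTP63 line above it. In each case the difference itself was tested by limma, and none passed (adjusted p = 0.995). Among the members, the shTP63 response minus the shSOX2 response was 1.40 ± 0.47 in log2 units for LSS, 0.77 ± 0.52 for PMVK, 0.76 ± 0.47 for FDPS and 0.61 ± 0.50 for FASN. From the other lists, it was 0.99 ± 0.43 for DHDDS. The shTP63 day 0 library was lower than the shSOX2 day 0 library for LSS (-0.52), FDPS (-0.67) and FASN (-0.37) and higher for PMVK (0.15), and lower for DHDDS (-0.68). With the day 0 controls exchanged between the lines, the opposite directions held for PMVK (-0.62 in the shSOX2 line and 0.46 in the shTP63 line) and for none of the other 4. There LSS was 0.11 and 0.48, FDPS 0.58 and -0.01, FASN -0.02 and -0.16 and DHDDS -0.09 and -0.46 in the same order.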

How the results depend on the processing

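Of 2863 values of single genes under other settings, 2758 kept their direction and side of the threshold, 17 came to pass it, 6 (all TP63 between the induced lines) no longer passed and 82 changed sign. None of the 82 was called in either fit, and 6, all of members, came from a main change larger than its SE. The cause was not tested. The values that changed sign follow, in log2 units. In the SOX2 induction by median ratios HADHA was 0.04. In the difference by median ratios MVD was -0.03, NSDHL -0.01 and ACACA -0.02. In the SOX2 induction with the replicate block HMGCS1 was -0.01, MVD -0.11 and EBP 0.25. In the TP63 induction with the replicate block MVD was -0.10, DHCR7 -0.16 and SOX2 0.06. In the mean response with the replicate block MVD was -0.11 and EBP 0.04. In the SOX2 induction against both day 0 libraries MVD was -0.07, FDPS 0.24, EBP 0.38, DHCR7 0.02 and HADHA 0.43. In the TP63 induction against both day 0 libraries DHCR7 was -0.31, SCAP -0.03, DHDDS -0.12 and DGAT1 -0.03. In the SOX2 induction against the other day 0 library MVD was -0.14, IDI1 0.07, FDPS 0.58, LSS 0.11, EBP 0.86, DHCR7 0.84, HADHA 0.88 and TP63 -0.07. In the TP63 induction against the other day 0 library FDPS was -0.01, SQLE -0.01, DHCR7 -1.13, SCAP -0.30, FASN -0.16, DHDDS -0.46 and DGAT1 -0.30. Leaving out a day 4 library, in the SOX2 induction DHCR7 ran from -1.67 to 0.06, EBP from -0.43 to 0.22, HADHA from -0.25 to 0.20, HMGCS1 from -0.06 to 0.95, IDI1 from -0.31 to 0.13 and MVD from -0.17 to 0.19. Leaving out a day 4 library, in the TP63 induction ACLY ran from -1.68 to 0.32, AGPAT3 from -0.02 to 0.14, ELOVL6 from -0.07 to 0.01, MVD from -0.04 to 0.07, SQLE from -0.08 to 0.58 and TM7SF2 from -0.15 to 1.16. Leaving out a day 4 library, in the mean response ACLY ran from -0.98 to 0.01, DHCR7 from -0.58 to 0.29, MVD from -0.08 to 0.10 and PMVK from -0.21 to 0.05. Leaving out a day 4 library, in the difference ACACA ran from -0.13 to 0.18, ACLY from -1.38 to 0.61, FADS2 from -0.47 to 0.36, MVD from -0.17 to 0.19, SREBF2 from -0.48 to 0.05 and TM7SF2 from -0.82 to 0.49. Leaving out a day 4 library, in the induced lines ACACA ran from -0.22 to 0.09, ACAT2 from -0.35 to 0.53, ACLY from -1.43 to 0.56, DGAT2 from -0.57 to 0.06, DHCR7 from -1.19 to 0.53, FDFT1 from -0.08 to 0.28, HADHB from -0.04 to 0.28, MSMO1 from -0.40 to 0.25, MVD from -0.03 to 0.34, SCD5 from -0.02 to 0.15, SOX2 from -0.17 to 0.81 and TM7SF2 from -1.26 to 0.06.

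Members called were 0 throughout except in the mean response and the TP63 induction. In the mean response they were 2 at a pseudocount of 0.1 (INSIG1 and SCD), where 90 genes were called over the table. In the TP63 induction they were 2 with both day 0 libraries as control (INSIG1 and STARD4), where 291 genes were. Some members were also called on leaving out a day 4 library, which leaves a single library in its group. Genes called over the table moved widely. For the SOX2 induction (0) they were 1 at a pseudocount of 5, 11 with the line's libraries alone, 2 with both day 0 libraries, 4 with the other day 0 library and 0 to 11 on leaving out a library. For the TP63 induction (2) they were 5 at a pseudocount of 0.1, 154 without a filter, 1 at a mean RPKM of at least 5, 0 with the line alone, 291 with both day 0 libraries, 49 with the other day 0 library and 0 to 80 on leaving out a library. For the mean response (6) they were 90 at a pseudocount of 0.1, 0 without a filter, 1 at RPKM 5 and 0 to 263 on leaving out a library. For the induced lines (80) they were 46 and 30 at pseudocounts of 0.1 and 5, 0 without a filter, 44 at RPKM 5 and 0 to 324 on leaving out a library. For the difference (0) they were 0 to 5 on leaving out a library. With the replicate block they were 0 for the TP63 induction, 0 for the mean response and 18 for the induced lines. The same-numbered day 4 libraries of the lines did not deviate together (correlation of deviations -0.074). Whether a number ties day 0 to day 4 within a line was not tested.

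The fatty acid median in the SOX2 induction was 0.97 and 0.36 at pseudocounts of 0.1 and 5, 0.88 at RPKM 5 and 0.99 with the other day 0 library, and the sterol median 0.85 with the latter. In the TP63 induction the sterol median was 0.45 at a pseudocount of 5 and 0.47 with both or the other day 0 library, and the fatty acid median 0.31 at a pseudocount of 5. In the mean response the medians were 0.34 and 0.43 (sterol, fatty acid) at a pseudocount of 5. At RPKM 5 the sterol median was 0.05 in the difference and -0.33 between the induced lines, where it was 0.09. On leaving out a day 4 library, the sterol median ran from 0.26 to 0.52 and the fatty acid median from 0.65 to 0.89 in the SOX2 induction, the sterol median from 0.35 to 0.67 in the mean response and the fatty acid median from -0.59 to 0.16 in the difference. Between the induced lines the sterol median ran from -0.15 to 0.30 and the fatty acid median from -1.02 to -0.18. The sterol median between induced lines was -0.15 without shSOX2 replicate 2, and the fatty acid difference was 0.16 without shTP63 replicate 2, both opposite in sign. Without DHCR7, ACLY and ACAT2, chosen after seeing the data, the fatty acid median was 0.63 in the TP63 induction and the sterol median 0.62 in the mean response. A median counted as moved when it shifted by an SD between libraries. That SD was redefined after the first labels were seen: with the SD first used, between same-numbered library pairs, 36 of 132 medians moved, and with the one kept, combined from both lines, 24; 4 changed sign.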
